A study of Mus musculus with 2 samples.

Results

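Stambp-ps1 is a pseudogene of Stambp, the gene of an endosomal deubiquitinase, and it gives the series its name. The small RNAs of its locus were taken from both deposited tables as all reads of 18 to 32 nt that matched, without a mismatch and on either strand, the annotated transcripts of 2 genes. One is Gm18009, the GENCODE M21 entry for the RefSeq pseudogene Stambp-ps1. The other is Gm10069, the long noncoding RNA gene that surrounds it. These were 2 of 39127 annotated genes with at least 1 matching read. Gm18009 (ENSMUSG00000107505.1) is a processed pseudogene at chr6:128447084-128448398 of GRCm38, on the minus strand. Its annotated transcript of 1016 nt joins exon 1 (256 nt) and exon 2 (760 nt), and the 299 nt between them, chr6:128447844-128448142, were not examined. Gm10069 (ENSMUSG00000059659.7) spans chr6:128438757-128503281 on the plus strand, so a read antisense to Gm18009 runs in the direction of Gm10069. Its 3 transcripts merge into 6 exons of 4370 nt in all, and Gm18009 lies in the intron after exon 2.

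The labels describe whole testes of C57BL/6 mice at 23 dpp (days after birth), 1 sample of Stambp-ps1+/- and 1 of Stambp-ps1-/- animals. Both genotypes thus carry a mutant allele, no wild-type sample was analysed here, and neither what the allele removes nor how many animals were pooled is given. GEO attaches both tables to the Stambp-ps1-/- entry, yet 1 deposited name contains KO and the other contains het. Tables are therefore told apart by that word, as KO-named or het-named, and neither was assigned to a genotype. With 1 library per table no test between genotypes was possible. The bracketed ranges are exact 95% intervals that cover counting error alone, because amplified reads that carry no molecular identifier need not be separate molecules.

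The tables held 54384974 (KO-named) and 62773871 (het-named) reads, so that 3 reads, taken as the floor, equal 0.0552 and 0.0478 reads per 1000000 reads (RPM). Reads of 24 to 32 nt, the size of piRNAs, were 79.4% and 74.9% of them. The miRNAs that mark cell types were read in both tables. The germ cell list (4 of 5 found) summed to 20487.5 RPM (KO-named) and 19184.8 RPM (het-named), and the list of Sertoli and other somatic testis cells (4 of 4) to 28070.9 and 22934.8 RPM. Members of a list differed. In the same order Mir34c stood at 5482 and 3963 RPM, Mir449a at 619 and 493, Mir470 at 6767 and 6719, and Mir871 at 7619 and 8010. Mir10b gave most of the somatic sums, 19697 and 15718 RPM. Mir143 and Mir145a were also higher in the KO-named table, and Mir202 stood at 97.2 and 100. The 3 blood miRNAs summed to 63.7 and 43.1 RPM, endothelial Mir126a stood at 408 and 340, and liver Mir122 at 0 in both. Their part in the results below was not tested.

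piRNAs are germ line small RNAs that guide PIWI proteins to complementary RNA. They are cut from long single-stranded precursors, usually begin with U, and carry a methyl group at the 3′ end after trimming to the length that their PIWI partner protects. In the mouse testis, long noncoding RNAs, 3′ ends of some mRNAs and a number of pseudogenes serve as precursors, and a pseudogene read in the antisense direction gives RNAs that can resemble the complement of its parent mRNA.

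The sequences that carry much of the pseudogene's signal come first. They are the main length forms at the 10 starts with most reads, in order of reads, written with T for U. The capital marks the first base, which was U at each of these starts.
Gm18009 start 1 (chr6:128447668-128447698, plus strand, 31 nt): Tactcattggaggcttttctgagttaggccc
Gm18009 start 2 (chr6:128447788-128447818, plus strand, 31 nt): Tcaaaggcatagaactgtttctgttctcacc
Gm18009 start 3 (chr6:128447202-128447231, plus strand, 30 nt): Ttagatggctttgtttccttgaacctgggg
Gm18009 start 4 (chr6:128447504-128447534, plus strand, 31 nt): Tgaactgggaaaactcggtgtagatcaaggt
Gm18009 start 5 (chr6:128447203-128447231, plus strand, 29 nt): Tagatggctttgtttccttgaacctgggg
Gm18009 start 6 (chr6:128448177-128448201, plus strand, 25 nt): Tgctatctagggacttggctcatga
Gm18009 start 7 (chr6:128447391-128447420, plus strand, 30 nt): Tgcaataatcagacccagcatttcgtcggg
Gm18009 start 8 (chr6:128448259-128448288, plus strand, 30 nt): Taaacagatgctgtgtagatgacttgctcc
Gm18009 start 9 (chr6:128448180-128448208, plus strand, 29 nt): Tatctagggacttggctcatgaagggctt
Gm18009 start 10 (chr6:128448208-128448235, plus strand, 28 nt): Tgacgtacttgctgtagaggataaaggc

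Gm18009 gave small RNAs almost entirely in the het-named table and on 1 strand. The antisense strand had 2736 reads in the het-named table, 43.6 RPM (42.0 to 45.2), and 27 in the KO-named table, 0.496 RPM (0.327 to 0.722). The het-named value was 87.8-fold higher (60.2 to 133). The sense strand had 0 reads in the het-named table, with an exact upper limit of 0.0588 RPM, and 1 in the KO-named table. The ratio, KO-named over het-named, was low in both exons, with intervals that overlap: 0.0160 (0.00762 to 0.0295) in exon 1, with 10 and 723 reads, and 0.00975 (0.00567 to 0.0156) in exon 2, with 17 and 2013 reads. In whole testis, fewer cells of a type and less RNA per cell cannot be told apart.

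Per length, the pseudogene was a minor source beside known large ones. Gm18009 stood at 42.9 RPM per kb of exon in the het-named table. In the same table and with the same unit, Gm18609, a pseudogene with many antisense reads of piRNA size, stood at 242 and the piRNA precursor Gm49794 at 760. In the KO-named table those 2 sources stood at 287 and 894 RPM per kb and Gm18009 at 0.489. Gm10069, counted by its 1-place sense reads (reads whose start has a single position among all annotated transcripts), stood at 1.45 RPM per kb (het-named) and 0.522 (KO-named). Within the het-named table the pseudogene therefore lay far above the average of its host's exons per length. In the KO-named table the 2 averages were near each other, but that of the host mixes unlike exons. Its 1-place KO-named reads were 83 in the 182 nt of exon 2 and 4 in the 2881 nt of exon 3. Gm18009 had 27 in 1016 nt.

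Gm18009 differed between the tables by more than any other tested gene, and the call of Gm10069 depended on the counting. With reads of several places shared equally over those places and both strands counted, 35 of 5617 genes with at least 200 reads had a log2 ratio (KO-named over het-named) at or below -1, which is 0.623%. Counted in either direction, 0.659% of the genes were at or past 1 in size. Gm18009 (log2 -6.38) was the lowest of them and Gm10069 (-1.06) the 34th from the lowest, while the median of the tested genes was 0.14. With every matching read counted in full Gm10069 was not at or below -1, at -0.57 on both strands and -0.63 on the sense strand. Among 212 processed pseudogenes tested, Gm18009 held rank 27 by reads in the het-named table and was the only one at or below -1. An almost pure antisense make-up is not rare in that class: 40 other processed pseudogenes had at least 90% antisense reads in the het-named table. The log2 ratios of those 40 ran from -0.97 to 0.43 with a median of 0.25.

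Starts were spread along the antisense strand but a few held much of the signal. The 2736 reads of the het-named table began at 249 positions, of which 90 had a single read and 46 had 10 or more. The 10 starts printed above held 1308 reads, 47.8% (45.9 to 49.7), and 12 starts were enough for 50% of them. Start 1, in exon 2, had 382 reads (het-named) and 1 (KO-named), 14.0% of the antisense het-named reads. Start 2, also in exon 2, had 184 and 3 reads, and start 3 had 137 and 0. Starts 4 to 10 ran from 107 down to 58 het-named reads, with 0 to 2 KO-named reads each. The starts were ranked by reads in the summed tables, nearly all of them het-named, so these values are a description. When the strand was divided into bins of 50 nt, 20 of 21 bins held a het-named start, from 5 reads to 451 reads, and the bin without one is the last, of positions 1001 to 1016. The fullest bin, of positions 551 to 600, is that of start 1.

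**Figure D1:**
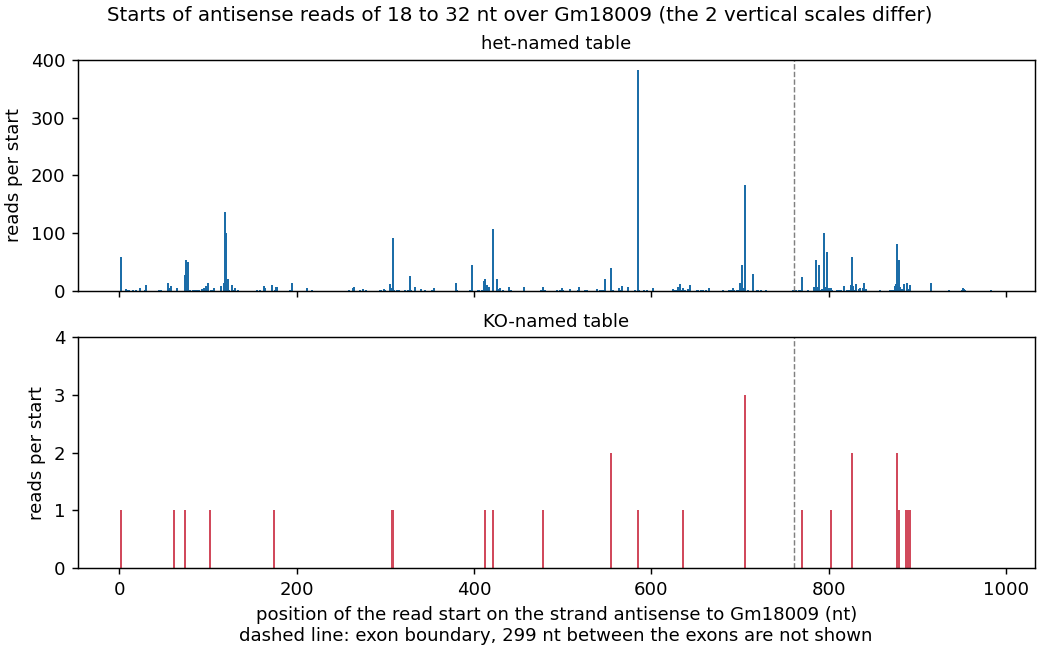
Reads of 18 to 32 nt that begin at each position of the strand antisense to Gm18009 (horizontal axis, nt from its 5′ end on the plus strand, exon 2 before exon 1), with the het-named table above and the KO-named table below on different vertical scales. The highest line in the het-named table is start 1 with 382 reads, and no position of the KO-named table has more than 3.

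The few reads of the KO-named table mostly repeated sequences of the het-named table. They were 24 distinct sequences at 22 starts, and 22 of these sequences had a single read. Of the 24 sequences 17 were also in the het-named table, which is 70.8% of the KO-named list and 2.90% of the list of 586 het-named sequences. Of the 22 starts 18 were shared, which is 81.8% of the KO-named list and 7.23% of the het-named list. These shares were not set against those of all genes, so the overlap is a description. The 10 printed starts held 10 of the 27 KO-named reads, 37.0% (19.4 to 57.6). KO-named reads fell in 13 of the 21 bins and were not gathered in 1 stretch of the pseudogene. What these reads come from was not tested.

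Uracil marked the starts in position as well as in reads. Of the antisense reads in the het-named table, 89.3% (88.0 to 90.4) began with U, whereas U made up 30.02% of the strand. Of the 305 U positions on the strand 158 were used as a start, 51.8% (46.0 to 57.5), against 91 of the 711 other positions, 12.8% (10.4 to 15.5). A used U start had 15.5 reads on average with a median of 4, and a used start with another base 3.23 reads with a median of 1. Of the 46 starts with 10 or more reads 42 began with U. With each distinct sequence counted once the share with U at the first base was lower, 75.3% (71.6 to 78.7). The 27 KO-named reads began with U in 81.5% (61.9 to 93.7), an interval that holds the 74.0% of all reads in that table.

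After the first base, the highest share of any base was that of C at base 31, 70.4% (67.2 to 73.4) of the 864 reads that reach it, and C was also 57.1% (54.5 to 59.6) at base 30. Between bases 2 and 29 the share of U in the het-named reads ran from 16.01% at base 2 to 52.2% at base 25, that of A from 12.2% at base 29 to 47.8% at base 22, that of G from 9.13% at base 22 to 46.6% at base 12, and that of C from 9.58% at base 13 to 36.6% at base 29. Start 1 alone gave 14.0% of all antisense reads, and a larger part of those that reach the last bases. Of the 864 reads that reach base 31, start 1 gave 324 of 31 nt and 33 of 32 nt. Start 2 gave 163 more, and all of these have C at bases 30 and 31. The high shares of C there thus rest largely on 2 starts. A at base 10, the mark of piRNAs made by ping-pong from the opposite strand, was present in 18.9% (17.4 to 20.4) of reads, below the 22.9% of A on the strand, but in 23.7% (20.3 to 27.4) with distinct sequences counted once. The last base was C in 43.8% (41.9 to 45.6), U in 26.2% (24.6 to 27.9), G in 23.0% (21.4 to 24.6) and A in 7.09% (6.16 to 8.12) of reads. The 324, 33 and 163 reads of starts 1 and 2 given above all end in C, so this share of C also rests in part on 2 starts. Ahead of the start, the strand had G in 13.8% (12.5 to 15.2) of reads, against 25.5% on the whole strand.

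**Figure D2:**
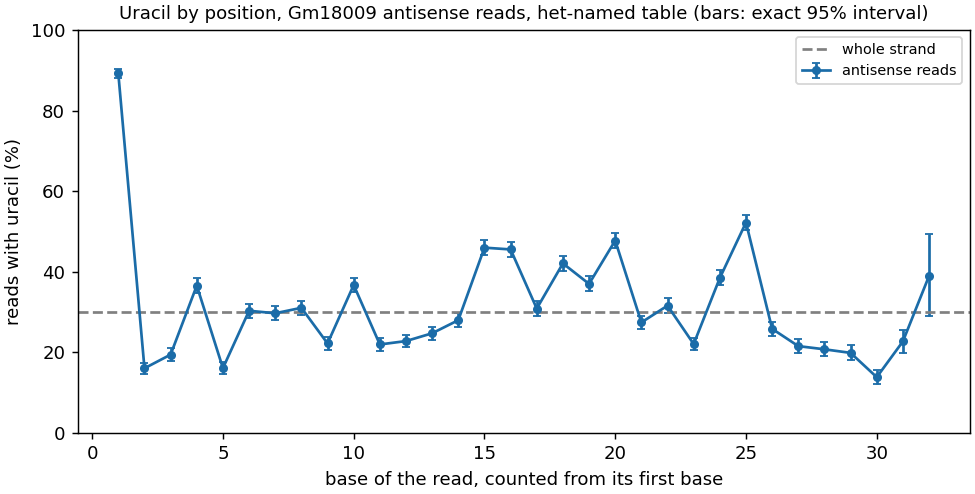
In the het-named table, share of antisense Gm18009 reads with uracil (vertical axis, percent) at each base counted from the first (horizontal axis), with exact 95% intervals and a dashed line at the 30.02% of uracil on the whole strand. The first base stands at 89.3%, and the shares at bases 2 to 29 lie between 16.01% and 52.2%.

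Each well-used start gave several lengths, most often with 1 dominant form. Of the 249 starts 117 had a single length, but the 46 starts with 10 or more reads had at least 2 lengths, with a median of 5. The main form held between 19% and 94.4% of the reads of such a start, with a median of 60.4%, and at least 50% at 33 of them. It was 29 nt or longer at 36 of these starts and 28 nt or shorter at 10. Start 1 was nearly uniform: 25 reads of 30 nt, 324 of 31 nt and 33 of 32 nt. Start 2 was likewise concentrated, with 163 of its 184 reads at 31 nt, and its next form, of 26 nt, had 11 reads. Start 3 had separate long and short forms, with 47 reads of 30 nt, 34 of 29 nt and 38 of 26 nt. Start 10 had 23 reads of 28 nt and 22 of 26 nt. Start 6 had no dominant form, with 10 lengths from 22 to 32 nt of which the most frequent, 25 nt, held 19%. Lengths thus differed from start to start on the same strand.

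**Figure D3:**
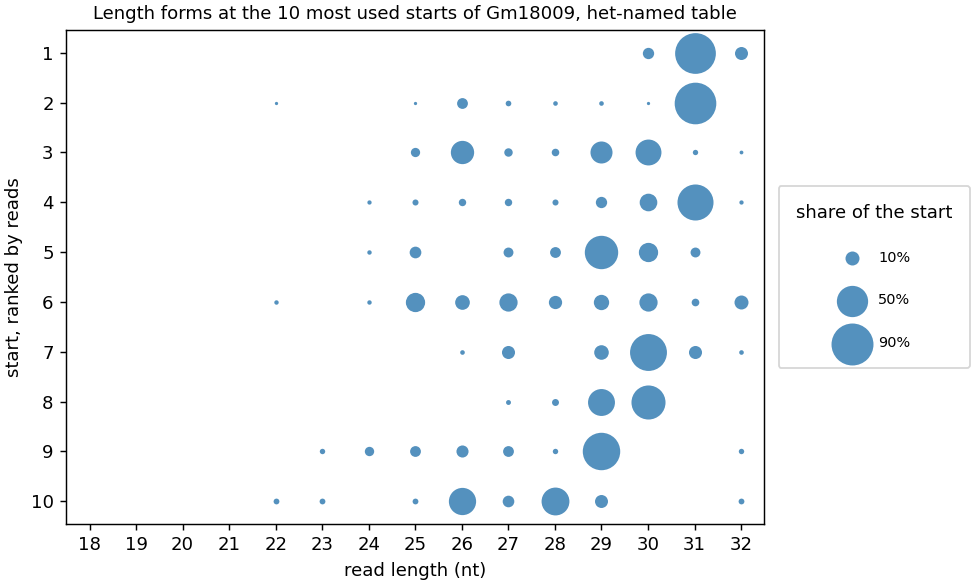
Length forms at the 10 most used starts of antisense Gm18009 reads, het-named table, with read length in nt on the horizontal axis, the rank of the start on the vertical axis and the area of each circle showing the share of that start's reads. Starts 1, 2 and 4 are concentrated at 31 nt, and start 6 spreads over 10 lengths.

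Some ends were shared among neighbouring starts, while the most used end came almost entirely from 1 start. The 2736 reads ended at 340 positions, and the 10 most used ends held 42.0% (40.2 to 43.9) of them. The end at chr6:128447231 had 111 reads from 4 starts, among them starts 3 and 5, which lie 1 nt apart and whose main forms differ by 1 nt. The end at chr6:128448288, that of the main form of start 8, had 87 reads from 8 starts. The most used end, that of start 1 at chr6:128447698, had 325 reads from 2 starts, and 324 of them were the 31 nt form of start 1. The next, at chr6:128447818, had 184 reads from 4 starts, and 163 of them were the 31 nt form of start 2.

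Neighbouring starts lay close together, and the sums at the step of a piRNA length lay on both sides of the median over 10 to 60 nt. Of the 247 gaps between neighbouring starts within an exon 98 were 1 nt, 41 were 2 nt and 39 were 3 nt, so that 72.1% (66.0 to 77.6) were 1 to 3 nt. The median gap was 2 nt and the longest 42 nt. With 249 starts on 1016 nt short gaps are in part a matter of density, and their share under random placement was not computed. To weight gaps by reads, the smaller of the read counts of each pair of starts was summed for each distance. This sum was 401 reads at 1 nt, 379 at 2 nt and 434 at 3 nt, against a median of 151 over 10 to 60 nt. At 26 to 32 nt, where phased cutting would place the next start, it was in order 95, 150, 214, 138, 142, 199 and 133. The sums at 28 and 31 nt were above that median and the others below it. All were below the highest value over 10 to 60 nt, 277 at 45 nt.

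The distance from an end to the next start was summed in the same way. In phased piRNA production 1 cut forms the end of a precursor piece and the next start, but an end that was trimmed afterwards no longer marks that cut. The summed reads at that distance were 174, near the median of 169.5 over distances of 1 to 50 nt, and 22 of these 50 distances had more. The highest sums were 271 at 14 nt, 279 at 15 nt and 247 at 16 nt. The base of the strand that follows the end was U in 17.1% (15.7 to 18.6) of reads, below the 30.02% of U on the strand. With each end counted once it was 31.2% (26.3 to 36.4), so the low value rests on the ends with many reads.

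A further set of reads matched the pseudogene except at the last base, and this last base was mostly U. This was examined after the values were seen. Reads of at least 20 nt whose last base alone differed from the strand, and which had no exact match to another annotated transcript, numbered 421 in the het-named table. They were 13.4% (12.2 to 14.6) of these reads and the reads with an exact last base together. Of the 421 reads 388, or 92.2%, ended in U and 27 in A, and C and G had 3 each. They came from 94 starts. The KO-named table had 7 such reads, and each ended in U. Among the reads with 1 mismatch anywhere, 515 in the het-named table, 81.7% had it at the last base. A last U that meets a U of the strand reads as an exact match, so these counts leave such ends out. How the differing last bases arose was not tested, and how reads were trimmed is not stated. The 4 most frequent sequences of this kind are printed with the differing base in capitals.
Gm18009 start 3 with a differing end (31 nt): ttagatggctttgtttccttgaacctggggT
Gm18009 start 3 with a differing end (30 nt): ttagatggctttgtttccttgaacctgggT
Gm18009 start 7 with a differing end (31 nt): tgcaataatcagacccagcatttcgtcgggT
Gm18009 start 7 with a differing end (32 nt): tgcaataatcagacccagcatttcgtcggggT

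These differing ends made up a large part of some starts. Reads of start 3 that ended in a differing U numbered 42 at 31 nt and 40 at 30 nt, beside 47 exact reads of 30 nt. Start 7 had 24 such reads at 31 nt beside 8 exact reads of that length. The larger piRNA sources also had such ends. The last base differed in 10.6% (10.4 to 10.8) of antisense Gm18609 reads and in 11.5% (11.4 to 11.6) of sense Gm49794 reads of the het-named table, and it was U in 90.3% and 89.1% of them. Start 3 held 89 of the 421 differing reads of Gm18009, the most of any start. Without that start the share was 11.3% (10.2 to 12.6), an interval that holds those of both sources. The start was picked for its differing reads and the sources kept all of theirs, so these shares are not on equal terms.

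Compared with the same sources, the reads of Gm18009 were long. Reads of 29 to 31 nt, the length usual for MIWI, were 68.0% (66.2 to 69.8) of Gm18009, 54.4% (54.0 to 54.8) of Gm18609 and 30.2% (30.1 to 30.3) of Gm49794 reads in the het-named table. Reads of 26 to 28 nt, the length usual for MILI, were 22.8% (21.2 to 24.4), 31.6% (31.3 to 32.04) and 46.7% (46.5 to 46.8). The most frequent length of Gm18009 was 31 nt, against 29 nt for Gm18609 and 27 nt for Gm49794. Of its 769 reads of 31 nt, however, 324 came from start 1 and 163 from start 2. The shares with U at the first base were close, 89.3% (88.0 to 90.4), 87.4% (87.1 to 87.7) and 90.3% (90.3 to 90.4). A at base 10 was less frequent in Gm18009, 18.9% (17.4 to 20.4), than in Gm18609, 33.3% (32.9 to 33.7), or Gm49794, 24.5% (24.4 to 24.6), when reads were counted. With distinct sequences counted once it was 23.7% (20.3 to 27.4) in Gm18009. That share is not given here for Gm18609 or Gm49794, so it cannot be set beside their read shares. Start counts and gaps were not compared between the sources, since they depend on the number of reads.

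**Figure D4:**
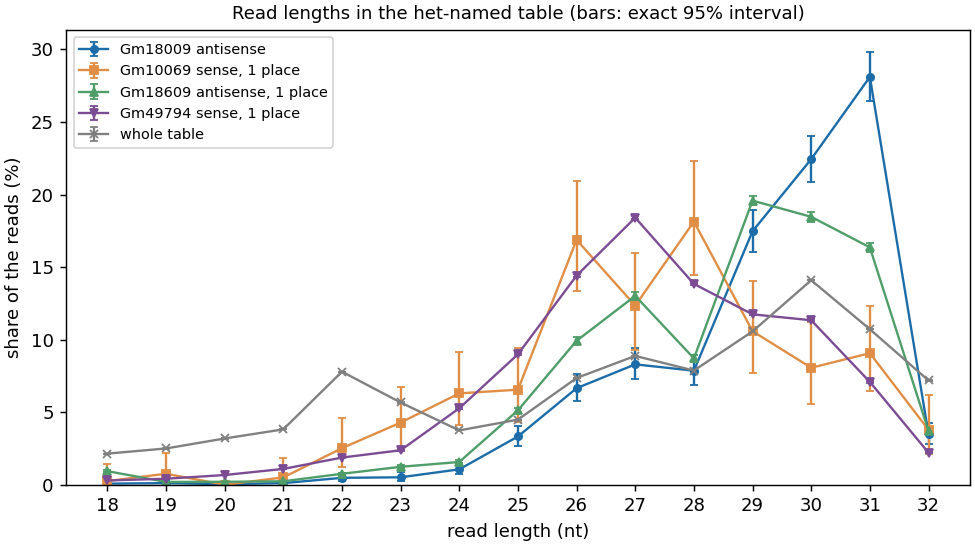
Share of reads (vertical axis, percent) at each length from 18 to 32 nt (horizontal axis) in the het-named table for antisense Gm18009 reads, 1-place sense reads of Gm10069 and Gm49794, 1-place antisense reads of Gm18609, and the whole table, with exact 95% intervals. Gm18009 peaks at 31 nt, Gm18609 at 29 nt, Gm10069 at 28 nt and Gm49794 at 27 nt.

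Some reads of the pseudogene were close to the complement of the Stambp coding sequence. Each antisense read of 24 to 32 nt was set without gaps against the longest coding Stambp transcript (2364 nt, coding sequence from base 334 to 1605), and its best site was kept. With up to 1 mismatch there were 31 of 2700 het-named reads, and with up to 5 mismatches 323 reads, or 11.96%. Of the printed starts, start 10 had 2 mismatches, start 7 had 5 and start 2 had 8. Starts 7 and 2 had none at bases 2 to 8 and start 10 had 1. The other 7 printed starts had 10 to 15, a number at which a best site somewhere in the mRNA need not be the homologous one. The 3 reads are printed below with 1 read at position 840 of the strand that had a single mismatch, each with its Stambp site. All 4 sites lie in the coding sequence. Capitals mark the bases that pair, reading the Stambp site from its 3′ end.
Gm18009 start 10 read (28 nt): TGAcGTACTTGcTGTAGAGGATAAAGGC
Stambp mRNA, bases 508 to 535: GCCTTTATCCTCTACAaCAAGTACaTCA
Gm18009 start 7 read (30 nt): tGCAATAATCAGaCCCAgCATTTcGTCgGG
Stambp mRNA, bases 1238 to 1267: CCaGACaAAATGgTGGGcCTGATTATTGCc
Gm18009 start 2 read (31 nt): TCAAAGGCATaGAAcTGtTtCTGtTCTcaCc
Stambp mRNA, bases 800 to 830: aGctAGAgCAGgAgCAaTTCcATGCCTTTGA
Gm18009 position 840 read (26 nt): TAGAGGATAAAGGCATGTTCAAgGTT
Stambp mRNA, bases 496 to 521: AACaTTGAACATGCCTTTATCCTCTA

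The position 840 read had 8 reads (het-named) and 0 (KO-named). Whether any of these reads acts on Stambp mRNA was not tested.

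The host transcript gave fewer sense reads than the pseudogene gave antisense reads in the het-named table, and more of them in the KO-named table. Sense reads of Gm10069 numbered 398 (KO-named) and 710 (het-named) with every matching read counted in full, a ratio of 0.647 (0.571 to 0.733). Much of this comes from a repeated stretch near the end of exon 3, where reads match other genes as well. Starts at chr6:128475400-128475410 gave 237 KO-named and 272 het-named sense reads, each with several places. The most used of all Gm10069 starts, chr6:128475410, lies there with 143 het-named and 117 KO-named reads, a ratio of 0.944 (0.733 to 1.21), and its main form also matched 4 other genes. The several-place sense reads of exon 3 as a whole numbered 274 and 313, a ratio of 1.0104 (0.856 to 1.19). The 1-place sense reads numbered 124 and 397, a ratio of 0.361 (0.292 to 0.442). The lower level in the KO-named table thus lay in the reads with 1 place. Antisense reads of Gm10069 numbered 90 and 124, a ratio of 0.838 (0.631 to 1.11), and all but 1 in each table had several places.

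The 1-place reads of the host differed between the exons before and beyond the pseudogene. Exon 1 (chr6:128438757-128439387) had 36 KO-named and 133 het-named reads, a ratio of 0.312 (0.210 to 0.454). Exon 2 (chr6:128439515-128439696), the densest with 1033 het-named reads per kb, had 83 and 188, a ratio of 0.510 (0.389 to 0.663). Exon 3 (chr6:128472737-128475617), 24339 nt beyond Gm18009, had 4 and 67, a ratio of 0.0689 (0.0182 to 0.185). Exon 4 had 0 reads in both tables, exon 5 had 0 and 5, and exon 6 had 1 and 4. Before the pseudogene the ratio was 0.428 (0.344 to 0.530) from 119 and 321 reads, and after it 0.0759 (0.0240 to 0.185) from 5 and 76 reads. These 2 intervals do not overlap, and both lie above that of the pseudogene itself. Reads in the intron around Gm18009 were not examined, since no genome sequence was used. Of the sense reads that cross a splice junction, with 1 place, there were 6 (het-named) and 1 (KO-named).

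**Figure D5:**
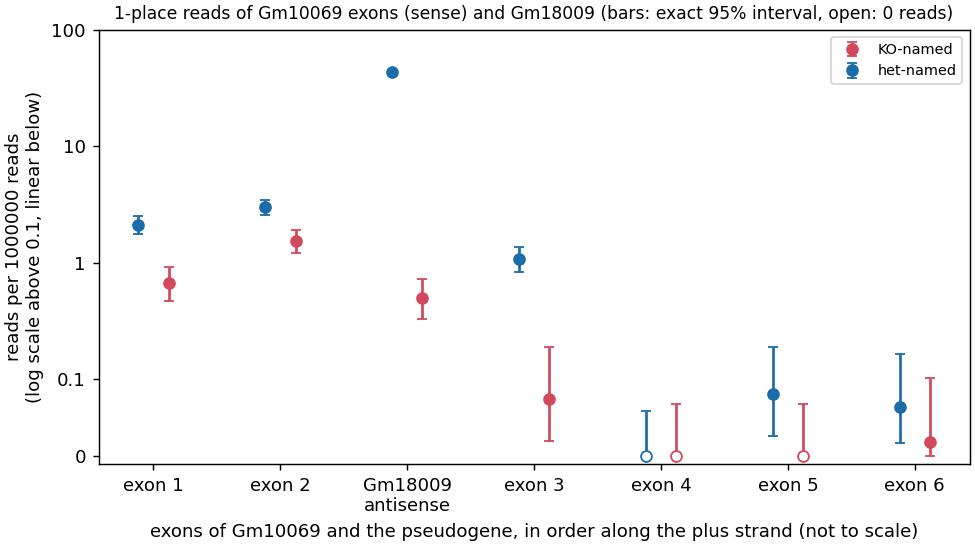
Reads with 1 place per 1000000 reads (vertical axis, logarithmic above 0.1 and linear below) for the 6 exons of Gm10069 on the sense strand and for the antisense reads of Gm18009, in order along the plus strand, with exact 95% intervals and open circles for 0 reads. Among the exons with reads the tables are closest at exon 2, with 1.53 RPM (KO-named) and 2.99 (het-named), and the KO-named value is far lower at Gm18009 and exon 3.

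The sequences of the 4 most used 1-place starts of Gm10069 are shown because they hold the most host reads and lie on both sides of the pseudogene. The capital again marks the first base.
Gm10069 start 1 (chr6:128439556-128439581, plus strand, 26 nt): Tatgagatgcctgtggagttctgagt
Gm10069 start 2 (chr6:128439558-128439585, plus strand, 28 nt): Tgagatgcctgtggagttctgagtctgt
Gm10069 start 3 (chr6:128439178-128439205, plus strand, 28 nt): Tgattgtgccacagatgcccatggttcc
Gm10069 start 4 (chr6:128474566-128474596, plus strand, 31 nt): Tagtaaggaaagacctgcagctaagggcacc

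Start 1 of Gm10069 had 59 het-named and 33 KO-named reads, a ratio of 0.646 (0.408 to 1.005). Start 2, 2 nt further in exon 2, had 54 and 24 reads, a ratio of 0.513 (0.303 to 0.844). They overlap in sequence, and all starts at chr6:128439553-128439558 together held 125 het-named and 57 KO-named reads. Start 3, in exon 1, had 26 and 8 reads (ratio 0.355, 0.139 to 0.808). Start 4, the most used 1-place start of exon 3, had 26 reads (het-named) and 0 (KO-named). Its het-named level was 0.414 RPM, and the exact upper limit for 0 KO-named reads is 0.0678 RPM. Starts 1 and 2, in exon 2, were thus read in both tables and start 4, in exon 3, in the het-named table alone.

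The 1-place host reads as a whole were shorter than those of the pseudogene, while the main forms of its 10 most used starts ran from 24 to 32 nt. Start 1 of Gm10069 came in 9 lengths in the het-named table, with 24 het-named and 21 KO-named reads at 26 nt. Start 2 had 8 lengths, the most frequent, 28 nt, with 15 het-named reads. Start 3 had 24 of its 26 het-named reads at 28 nt and the 8 KO-named reads also at 28 nt. Start 4 had its main form at 31 nt with 19 het-named reads. Over the 1-place sense reads of the het-named table, 47.4% (42.4 to 52.4) were 26 to 28 nt and 27.7% (23.4 to 32.4) were 29 to 31 nt, against 22.8% and 68.0% in Gm18009. In the KO-named table these shares of Gm10069 were 60.5% (51.3 to 69.1) and 12.9% (7.56 to 20.1).

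The host reads shared the first base of piRNAs. U led 84.6% (80.7 to 88.0) of the 1-place sense reads (het-named) and 79.0% (70.8 to 85.8, KO-named). Of all reads in each table U led 66.5% (het-named) and 74.0% (KO-named), and the KO-named interval of the host holds the latter. A at base 10 was present in 22.2% (18.2 to 26.6, het-named) and 14.5% (8.84 to 22.0, KO-named) of the 1-place sense reads. The several-place reads differed, with A at base 10 in 86.3% (81.9 to 89.9) and 80.7% (75.5 to 85.2). These shares rest on a few overlapping starts. Of the 313 het-named reads 272, and of the 274 KO-named reads 237, began at chr6:128475400-128475410. The starts there with 143, 44 and 36 het-named reads have A at base 10. The 1-place reads began at 123 positions (het-named) and 46 (KO-named), of which 25 were shared, 20.3% and 54.3% of the lists. The 10 most used starts held 57.2% (52.1 to 62.1) of the het-named 1-place reads. The gaps between neighbouring starts had a median of 6.5 nt, wider than in Gm18009, at a far lower number of reads.

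Genes set beside the members for reference were nearer to equal in the 2 tables than Gm18009 or the 1-place total of Gm10069. Fkbp4, the neighbouring gene of an immunophilin, which lies on the minus strand, had 43 KO-named and 67 het-named sense reads with 1 place, a ratio of 0.741 (0.493 to 1.103). Stambp had 365 and 543 such reads, a ratio of 0.776 (0.678 to 0.888). Gm18609 and Gm49794 were slightly higher in the KO-named table, with ratios of 1.19 (1.172 to 1.2004) and 1.18 (1.17 to 1.18).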

How the data were processed

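Per the labels, 20 µg of testis RNA was run on a 15% gel, and the fraction of 15 to 40 nt went into directional TruSeq libraries. Each deposited table lists distinct read sequences with a raw count of reads and no scaling, as the values show. How reads were trimmed and length-filtered is not stated per the labels. The members and lists were chosen with earlier results of these data known.

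Members were matched exactly to GENCODE M21 transcripts (GRCm38) by comparing every read of 18 to 32 nt with all their substrings. All reads were also matched to all transcripts with bwa 0.7.19 (0 mismatches, both strands), to count places. Sequences with over 2000 matches, 102 in all, were left out of place and gene counts. Member reads were counted in full unless stated. RPM uses all reads of the table, 54384974 and 62773871. Log2 ratios add 0.5 reads to each count. Genes needed 200 reads in the tables together, and a log2 ratio of 1 in size was the fold used. miRNAs were counted from sense reads of 19 to 25 nt, shared over places. Mir465a is not an annotated symbol there, and Mir142 stands for Mir142a. Intervals are exact Clopper-Pearson or conditional binomial at 95%, from scipy 1.17.1. Python 3.11.15, numpy 2.4.6 and matplotlib 3.10.9 were used. The named starts are the 10 with most reads in the summed tables, and the 1-place list of the host, the differing last bases, the complementarity to Stambp, the division of host exons at the pseudogene and the counts of processed pseudogenes were added after values were seen. The counting was tested on simulated data. Alternatives were other lengths, totals, minimums, mismatches and distinct sequences.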

Additional observations from a re-analysis of the deposited data

How the results depend on the processing

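Both log2 ratios stayed below 0 in each of the 17 alternatives tried for them, and 21 of 37 alternatives in all moved a value by less than its counting interval or, for the gene count, by less than 1.5 times. The log2 ratio of Gm18009, -6.38 as reported on both strands, was -3.18 from reads of 18 to 23 nt, where the KO-named table had 3 reads, and -4.40 from distinct sequences. That of Gm10069 sense reads, -0.63 as reported, was -0.36 from reads of 18 to 23 nt, -0.88 with miRNA reads as the total (a scale that lowers each log2 ratio by 0.25), -1.47 from 1-place reads and -1.18 with reads shared over their places. With distinct sequences counted once, U at the first base was 75.3% for Gm18009 and 67.9% for Gm10069 sense reads, A at base 10 was 23.7%, and U after the end was 30.03%. From 1-place reads U at the first base of Gm10069 was 84.6%. With starts of at least 3 reads, the 10 top starts held 50.8% of reads, 8.13% of starts had 1 length and 53.7% of gaps were 1 to 3 nt, and with starts weighted by reads 83.6% of gaps were. The count of genes at or past a log2 ratio of 1 in size was 37 as reported and 16 from reads of 24 to 32 nt, where fewer genes were tested (4552 against 5617). It was 55 with miRNA reads as the total. With a minimum of 100 reads it was 53 of 9158 genes, and with a minimum of 500 reads 25 of 2611. The cause of the other changes was not tested. No paired analysis was possible because each table is 1 library. Depth limits the KO-named values of single starts, most of which rest on 0 or 1 read.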

Other observations

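The single sense read of Gm18009, in the KO-named table, was 30 nt long and ran from chr6:128447639 down to 128447610 on the minus strand. Antisense reads whose start gives a 10 nt overlap with its 5′ end numbered 20 (het-named) and 0 (KO-named). The GENCODE gene with the symbol Stambp-ps1, another pseudogene on chromosome 8, had 0 sense reads (het-named) and 1 (KO-named), and that read had several places. One antisense Gm18009 read of the het-named table crossed the exon junction of the annotated transcript by a single base.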
